A study of Mus musculus with 16 samples.

Results

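Endothelial, angiogenic and vascular adhesion genes were followed in footpads of mouse lines that differ in susceptibility to pristane-induced arthritis (PIA). A list of 37 genes was set by symbol, from known functions, and 36 of the 37 were measured among 19938 genes. Selp, the P-selectin of platelets and endothelium, had no probe set that named it alone in the annotation used and is not analysed here. The 36 genes held 15 genes of blood endothelium, 4 receptor kinases, 3 transcription factors, 4 lymphatic genes, 5 adhesion genes and 5 angiogenic ligands and apelin genes.

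The AIRmax line was bred for a high and the AIRmin line for a low acute inflammatory reaction, and neither line is inbred. Footpad RNA was hybridized to 16 Affymetrix Mouse Gene 1.0 ST arrays, with 4 arrays (2 males and 2 females) for each line and treatment. AIRmax pristane (arrays 109 to 112) and AIRmin pristane (arrays 117 to 120) footpads were taken on day 160, after 2 intraperitoneal injections of 0.5 mL of the mineral oil pristane 60 days apart. AIRmax control (arrays 105 to 108) and AIRmin control (arrays 113 to 116) footpads are those of day 0, so the effects of pristane and of time cannot be told apart. The labels give 1 age range, 2 to 4 months, for all groups. It cannot be the age of the pristane mice on day 160, so age at sampling may also differ between pristane and control mice. The days are counted from the second injection, and no source read here says outright that control mice went without pristane. The methods describe the arrays of a group as biological replicates, and the labels do not say how many mice gave the RNA of each array.

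Endothelial cells line blood vessels and are joined by cadherins and claudins, while growth factors of the VEGF and angiopoietin families act on their receptor kinases to form, keep or remodel vessels. Lymphatic vessels, which drain fluid and cells from the tissue, carry a related set of genes. In inflamed joints the lining of small venules displays selectins and immunoglobulin-family adhesion molecules, to which leukocytes bind before they leave the blood.

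All values are log2 signals, so a difference of 1 is a doubling. Array medians over all 35556 probe sets lay between 5.435 and 5.53. As a guide to background, Xist gave 3.45 to 4.32 in males and Y-linked genes 2.04 to 3.34 in females, and the labelled sex fitted these genes on all 16 arrays. Of the 36 vascular genes, 30 had a mean signal above the median of all genes. In whole tissue, fewer cells of a type and less RNA per cell cannot be told apart. Signals of different genes come from different probes and are not set against each other.

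The AIRmin pristane array 119, from a female, stood apart for the vascular genes. It had the lowest signal of its group for 27 of 36 genes, against 32.7% of all genes, and the lowest of all 16 arrays for 26 of 36, against 16% of all genes. Most counts and medians that rest on the AIRmin pristane group are therefore given with and without it. Counts without overlap and counts by SAM are given with it only. For single genes the AIRmin response without it is given where it turned the direction (2 of the 36 genes) or moved the difference by over 1.5 times (12 genes). In the same group array 120 was highest for 27 genes. In AIRmax pristane mice array 112 was highest for 27 and array 110 lowest for 23. In AIRmin control mice array 113 was lowest for 28. Within a group, most vascular genes thus moved together from array to array.

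**Figure D1:**
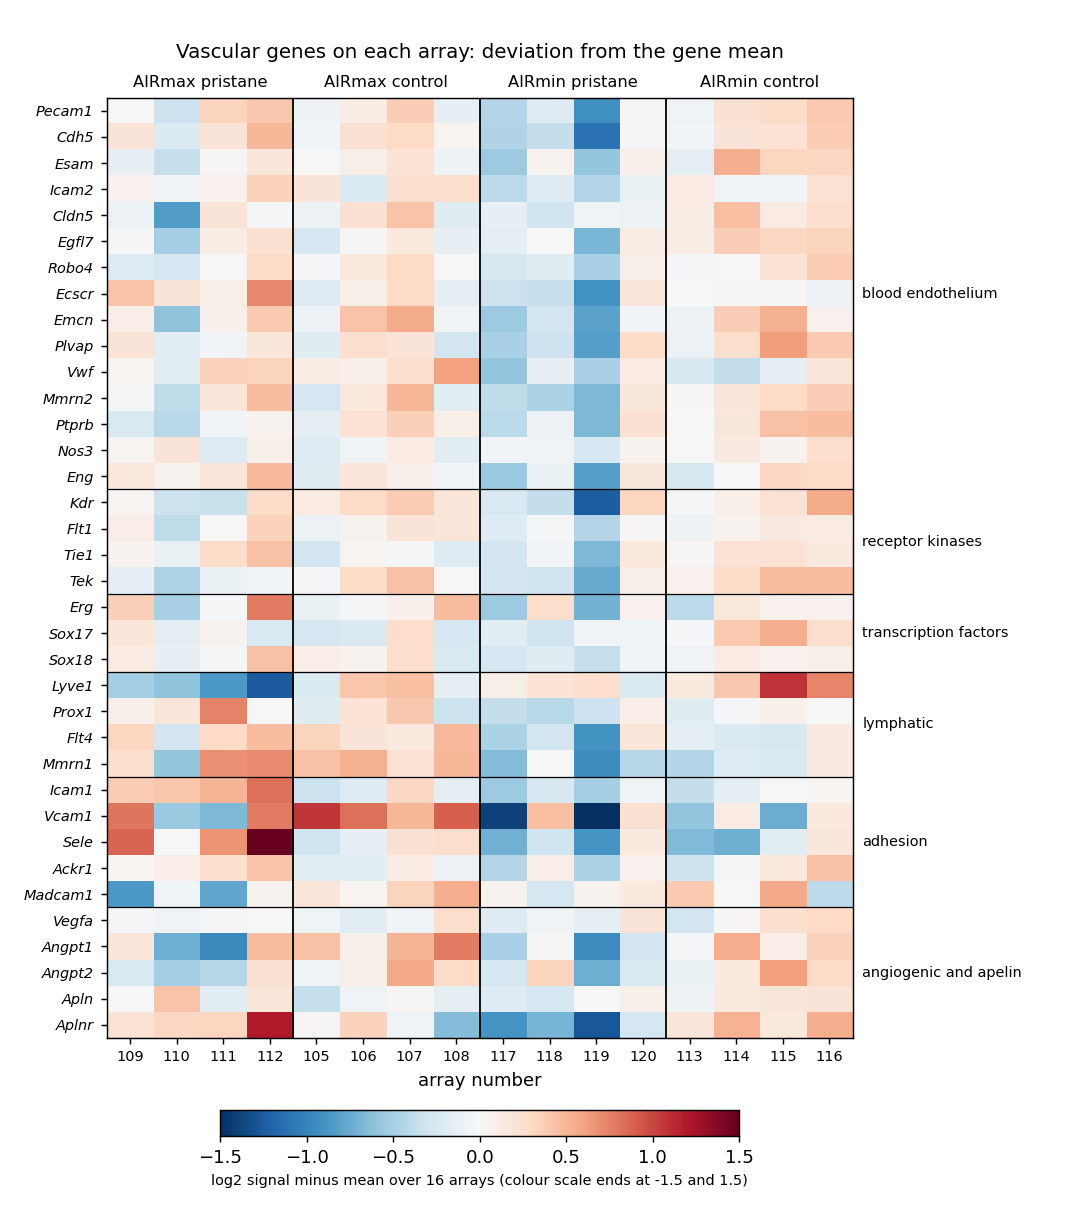
Heat map of the 36 vascular genes (rows, grouped by role) on the 16 arrays (columns, by group), coloured by the log2 signal minus the gene's mean over the 16 arrays, with the colour scale ending at -1.5 and 1.5. The column of array 119 is blue for most genes, array 112 is red for most, and Lyve1 is blue on all AIRmax pristane arrays.

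With pristane, the vascular genes of AIRmax footpads showed no common direction of difference from AIRmax control footpads, while those of AIRmin footpads all had a lower mean than in AIRmin control footpads. In AIRmax mice 18 differences were positive and 18 negative, with 55.7% of all genes positive, and the median was -0.00 against 0.03 over all genes. All 36 differences were negative in AIRmin mice, where 54.7% of all genes were positive, and their median was -0.37 against 0.02 over all genes. No single vascular gene passed the adjusted threshold of 0.05 (limma, Benjamini-Hochberg over all genes) in either response. The background was 0.281% of genes in the AIRmax response and 0% in the AIRmin response. An unadjusted p under 0.05 was found for 4 genes higher and 4 lower in AIRmax pristane mice, against 7.54% and 6.9% of all genes. In AIRmin pristane mice there were none higher and 17 lower, against 5.12% and 7.27% of all genes. Groups did not overlap for 1 gene higher (Icam1) and 2 lower (Tek and Lyve1) in AIRmax pristane mice, against 5.09% and 4.3% of all genes, and for none higher and 5 lower in AIRmin pristane mice, against 3.19% and 4.32%. SAM, the test named by the methods, called 3 vascular genes in the AIRmax response (3.78% of all genes) and 1 in the AIRmin response (2.09%). These were Icam1, higher, and Lyve1 and Madcam1, lower, in AIRmax pristane mice, and Aplnr, lower, in AIRmin pristane mice. Without array 119, 34 of the 36 AIRmin differences were negative, 13 had an unadjusted p under 0.05 (6.17% of all genes were lower at that p) and the median was -0.25. The count at that unadjusted p in the AIRmax response was 5 without array 106 or 108.

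Between the lines on day 160, 32 of the 36 vascular genes had a higher mean in AIRmax pristane than in AIRmin pristane footpads, where 49.1% of all genes did. The median difference was 0.38, against -0.01 over all genes. Icam1 was the one gene to pass (higher in AIRmax; 1.36% of all genes passed, 0.853% in this direction). SAM called the same gene alone (1.93% of all genes). An unadjusted p under 0.05 was found for 12 genes higher and 1 lower in AIRmax pristane mice, against 8.77% and 10.1% of all genes. Groups did not overlap for 3 genes higher (Icam1, Icam2 and Aplnr) and 1 lower (Lyve1), against 5.04% and 5.81% of all genes. Without array 119 the median was 0.23, 28 differences were positive, 7 had an unadjusted p under 0.05 and no gene passed. Of these 7, 6 were higher and 1 lower in AIRmax pristane mice, where 7.34% and 9.12% of all genes were. The count at that unadjusted p was also 7 without array 117 and 8 without array 112. On day 0, 14 vascular genes had the higher mean in AIRmax control and 22 in AIRmin control mice, with 43.2% of all genes higher in AIRmax. The median was -0.04 against -0.03 over all genes, and none passed (0.0802% of all genes did). At an unadjusted p under 0.05, 4 were higher and 4 lower in AIRmax control mice, against 8.38% and 8.4% of all genes. Groups did not overlap for 3 genes higher (Flt4, Mmrn1 and Vcam1) and none lower, against 5.39% and 4.94% of all genes. The count at that unadjusted p was 5 without array 105, 108 or 115 and 4 without array 114.

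The difference between the AIRmax and the AIRmin response, fitted as an interaction on all 16 arrays, was positive for 32 of 36 genes, where 51.3% of all genes were positive. Its median was 0.33, against 0.01 over all genes. Without array 119 the median was 0.27 and 28 of 36 genes were positive. None passed (0.171% of all genes did). At an unadjusted p under 0.05, 11 were positive and none negative, against 5.39% and 2.82% of all genes. That count was 7 without array 112, 116, 117 or 119, 6 without array 105 and 17 without array 120. Without array 119, 6.12% of all genes were positive at that p. These 5 comparisons share arrays, so they do not count as separate support for one another.

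**Figure D2:**
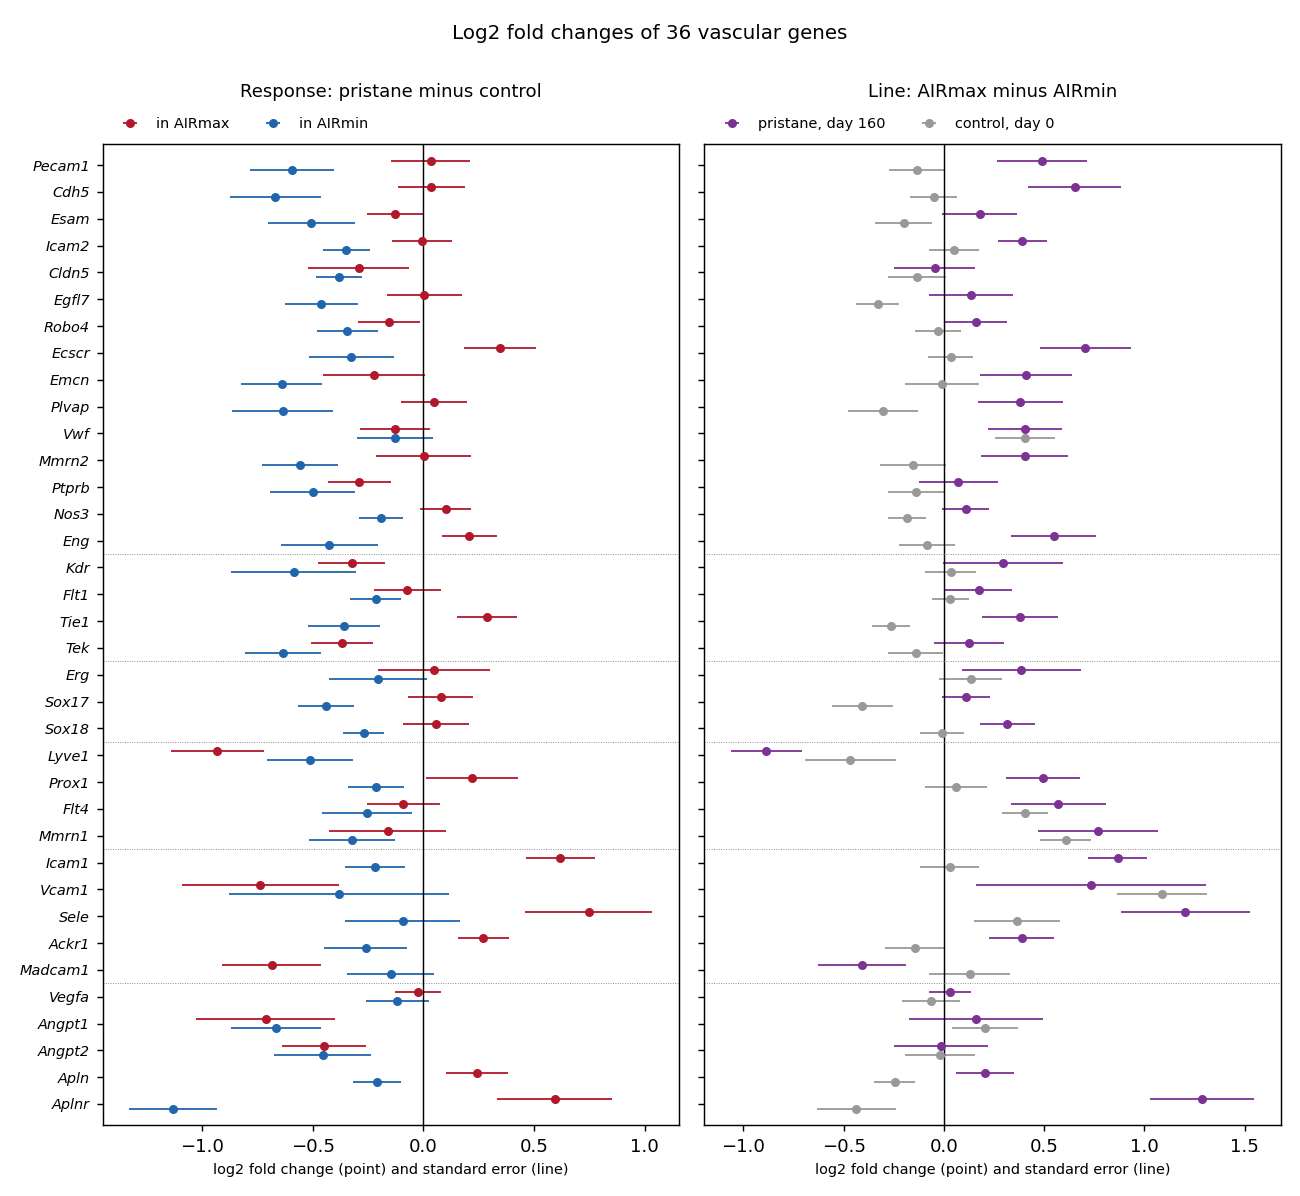
Log2 fold changes (points) with standard errors (lines) of the 36 vascular genes, for pristane minus control in AIRmax and AIRmin mice (left) and for AIRmax minus AIRmin mice with pristane and as controls (right). Every AIRmin response lies left of 0, and Icam1, Sele and Aplnr lie furthest right among the AIRmax minus AIRmin differences with pristane.

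Among the 15 genes of blood endothelium, 8 differences were positive and 7 negative in the AIRmax response, and none had an unadjusted p under 0.05. In the AIRmin response all 15 were negative (median -0.46), 11 of them with such a p, where 7.27% of all genes were lower at that p. Without array 119 all 15 were still negative (median -0.35), 7 with such a p, against 6.17% of all genes. Pecam1, the CD31 molecule of endothelial junctions, had 8.66, 8.35, 9.0 and 9.07 in AIRmax pristane mice, against 8.59, 8.78, 9.04 and 8.54 in AIRmax control mice. It had 8.23, 8.47, 7.75 and 8.69 in AIRmin pristane mice, against 8.60, 8.90, 8.94 and 9.06 in AIRmin control mice. The AIRmax groups overlapped throughout, and in AIRmin mice only array 120 with pristane reached into the range of the controls. The difference was 0.03 (SE 0.18, adjusted p = 0.95) in AIRmax and -0.59 (SE 0.19, adjusted p = 0.238) in AIRmin mice.

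Cdh5, the vascular cadherin of the junctions, had the same order. It had 7.83, 7.44, 7.83 and 8.14 in AIRmax pristane mice, against 7.60, 7.87, 7.94 and 7.69 in AIRmax control mice. It had 7.19, 7.28, 6.53 and 7.63 in AIRmin pristane mice, against 7.60, 7.83, 7.86 and 8.02 in AIRmin control mice. Array 119 gave the lowest value of all arrays. The response was 0.04 (SE 0.15, adjusted p = 0.936) in AIRmax and -0.67 (SE 0.21, adjusted p = 0.22) in AIRmin mice, and AIRmax minus AIRmin with pristane was 0.65 (SE 0.23, adjusted p = 0.177).

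Cldn5, the claudin of endothelial tight junctions, had 7.72, 6.97, 8.0 and 7.77 in AIRmax pristane mice, against 7.73, 8.03, 8.23 and 7.63 in AIRmax control mice. It had 7.69, 7.51, 7.74 and 7.72 in AIRmin pristane mice, against 7.91, 8.25, 7.93 and 8.06 in AIRmin control mice. The AIRmin groups did not overlap, and this gene was not low on array 119. The differences were -0.29 (SE 0.23, adjusted p = 0.59) in AIRmax and -0.38 (SE 0.10, adjusted p = 0.172) in AIRmin mice. Icam2, a constitutive endothelial ligand of leukocyte integrins, likewise lay lower without overlap in AIRmin pristane mice, at 5.63 to 5.96 against 6.02 to 6.28 in AIRmin control mice (-0.35, adjusted p = 0.224). Sox17, Sox18 and Aplnr were the other genes without overlap in AIRmin mice.

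Emcn, the endomucin of capillaries and venules, had 7.63, 6.92, 7.61 and 7.92 in AIRmax pristane mice, against 7.44, 7.96, 8.08 and 7.48 in AIRmax control mice. It had 6.98, 7.25, 6.73 and 7.48 in AIRmin pristane mice, against 7.45, 7.89, 8.06 and 7.59 in AIRmin control mice. The pristane groups reached into the control range in both lines. The response was -0.22 (SE 0.23, adjusted p = 0.696) in AIRmax and -0.64 (SE 0.18, adjusted p = 0.194) in AIRmin mice. Egfl7, a secreted endothelial matrix protein, was named for its difference on day 0, with 7.63, 7.90, 8.04 and 7.75 in AIRmax control mice, against 7.99, 8.25, 8.19 and 8.22 in AIRmin control mice. With pristane it had 7.86, 7.37, 8.0 and 8.11 in AIRmax mice, against 7.74, 7.88, 7.19 and 7.99 in AIRmin mice. The day 0 difference was -0.33 (SE 0.11, adjusted p = 0.22), and the groups overlapped by 1 array of each line. The AIRmin response of Egfl7 was -0.46 with array 119 and -0.29 without it.

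The other genes of this group gave AIRmin responses from -0.13 for Vwf, the clotting factor carrier stored in endothelium and platelets, to -0.63 for Plvap, which forms the diaphragms of fenestrae. Mmrn2, an endothelial matrix glycoprotein, gave -0.56. Esam, a junction protein, gave -0.51. Ptprb, the phosphatase that acts on Tek and Cdh5, gave -0.50. Eng, a TGF-beta co-receptor, gave -0.42. Robo4, an endothelial guidance receptor, gave -0.34. Ecscr, an endothelial surface protein, gave -0.33. Nos3, the endothelial nitric oxide synthase, gave -0.19. In the AIRmax response the same genes ranged from -0.29 for Ptprb to 0.35 for Ecscr, and none of these values passed in either line. Without array 119 the AIRmin response was -0.05 for Vwf, -0.26 for Eng and -0.14 for Ecscr. With pristane, AIRmax minus AIRmin was 0.71 for Ecscr (adjusted p = 0.145) and 0.55 for Eng (adjusted p = 0.211). Vwf was the one gene of blood endothelium with an unadjusted p under 0.05 and the higher mean in AIRmax on day 0 (0.40, adjusted p = 0.243).

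The 4 receptor kinases had negative differences in AIRmin mice, with a median of -0.47, and of -0.25 without array 119. Tek, the angiopoietin receptor Tie2, had the largest of these. It had 7.51, 7.20, 7.55 and 7.62 in AIRmax pristane mice, against 7.64, 7.95, 8.10 and 7.66 in AIRmax control mice. It had 7.38, 7.36, 6.91 and 7.74 in AIRmin pristane mice, against 7.72, 7.94, 8.13 and 8.13 in AIRmin control mice. All AIRmax pristane arrays lay below all AIRmax control arrays, and in AIRmin mice only array 120 reached the lowest control. The differences were -0.37 (SE 0.14, adjusted p = 0.287) in AIRmax and -0.63 (SE 0.17, adjusted p = 0.166) in AIRmin mice.

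Tie1, the partner receptor of Tek, had 7.48, 7.32, 7.70 and 7.86 in AIRmax pristane mice, against 7.13, 7.45, 7.40 and 7.23 in AIRmax control mice. It had 7.14, 7.38, 6.75 and 7.58 in AIRmin pristane mice, against 7.44, 7.63, 7.64 and 7.57 in AIRmin control mice. The means were thus higher with pristane in AIRmax and lower in AIRmin mice, with overlap in both lines. The response difference between lines was 0.64 (SE 0.22, adjusted p = 0.398). It was 0.49 without array 119. The AIRmin response of Tie1 was -0.36, and -0.20 without that array. Kdr, the main VEGF receptor of blood endothelium, gave -0.32 in AIRmax (adjusted p = 0.37) and -0.58 in AIRmin mice (adjusted p = 0.442). Without array 119 the AIRmin value of Kdr was -0.30 and AIRmax minus AIRmin with pristane was 0.01, against 0.30 with it. Flt1, which binds VEGF with high affinity and limits its action on Kdr, gave -0.07 in AIRmax and -0.21 in AIRmin mice (adjusted p = 0.864 and 0.499), and -0.12 in AIRmin mice without array 119.

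Of the transcription factors, Sox17, which specifies arterial endothelium, had 5.41, 5.09, 5.27 and 5.0 in AIRmax pristane mice, against 4.97, 5.01, 5.49 and 4.98 in AIRmax control mice. It had 5.05, 4.93, 5.18 and 5.15 in AIRmin pristane mice, against 5.20, 5.61, 5.77 and 5.49 in AIRmin control mice. The AIRmin groups did not overlap, and the AIRmax groups did. The response was 0.08 (SE 0.15, adjusted p = 0.84) in AIRmax and -0.44 (SE 0.13, adjusted p = 0.194) in AIRmin mice, and the difference between them was 0.52 (SE 0.20, adjusted p = 0.491). Sox18, a factor of blood and lymphatic vessel development, gave 0.06 in AIRmax mice (adjusted p = 0.892) and -0.27 in AIRmin mice, there without overlap (adjusted p = 0.263). Erg, an ETS factor that maintains endothelial identity, gave 0.05 in AIRmax and -0.21 in AIRmin mice (adjusted p = 0.95 and 0.758), and -0.05 in AIRmin mice without array 119.

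The 4 lymphatic genes did not move as 1 group. Lyve1, a hyaluronan receptor of lymphatic endothelium that some tissue macrophages also carry, had 8.71, 8.60, 8.34 and 7.96 in AIRmax pristane mice, against 9.0, 9.63, 9.66 and 9.06 in AIRmax control mice. It had 9.30, 9.42, 9.46 and 8.99 in AIRmin pristane mice, against 9.36, 9.61, 10.30 and 9.94 in AIRmin control mice. Every AIRmax pristane array lay below every other array of the series. The difference was -0.93 (SE 0.21, adjusted p = 0.117) from AIRmax control mice and -0.89 (SE 0.18, adjusted p = 0.0509) from AIRmin pristane mice, just above the threshold. The AIRmin response was -0.51 (SE 0.20, adjusted p = 0.318). The interaction was -0.42 (SE 0.31, adjusted p = 0.8). With all 16 arrays in 1 fit Lyve1 passed in both comparisons (adjusted p = 0.0428 and 0.0246), where the ranges over all alternatives were 0.0428 to 0.298 for the AIRmax response and 0.0246 to 0.160 for the lines with pristane.

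Prox1, the factor that sets lymphatic identity, did not share the low values of Lyve1. It had 4.98, 5.10, 5.65 and 4.91 in AIRmax pristane mice, against 4.73, 5.11, 5.32 and 4.59 in AIRmax control mice. It had 4.55, 4.50, 4.59 and 5.01 in AIRmin pristane mice, against 4.73, 4.89, 4.98 and 4.90 in AIRmin control mice. These signals are dim, the lowest close to the 4.32 that Xist reached in males. AIRmax minus AIRmin with pristane was 0.50 (SE 0.18, adjusted p = 0.194).

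Flt4, the receptor of VEGF-C on lymphatic vessels, and Mmrn1, a multimerin of lymphatic endothelium and platelets, differed between the lines on day 0 without overlap. Flt4 had 6.63, 6.49, 6.44 and 6.79 in AIRmax control mice, against 6.16, 6.08, 6.06 and 6.44 in AIRmin control mice (0.40, SE 0.11, adjusted p = 0.205), and the 2 nearest arrays were equal at the second decimal. With pristane Flt4 had 6.62, 6.01, 6.60 and 6.76 in AIRmax mice, against 5.82, 6.01, 5.40 and 6.48 in AIRmin mice (0.57, adjusted p = 0.239). Most AIRmax arrays were thus higher in both states. Its AIRmin response was -0.26, and -0.08 without array 119.

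Mmrn1 had 7.12, 7.21, 6.89 and 7.18 in AIRmax control mice, against 6.24, 6.48, 6.45 and 6.81 in AIRmin control mice (0.61, SE 0.13, adjusted p = 0.137). With pristane it had 6.92, 6.10, 7.37 and 7.39 in AIRmax mice, against 6.03, 6.67, 5.74 and 6.25 in AIRmin mice (0.77, SE 0.30, adjusted p = 0.213). Its AIRmin response was -0.32, and -0.18 without array 119. SAM called Mmrn1 and Vcam1 on day 0 (1.4% of all genes), both higher in AIRmax control mice. The 6 measured platelet markers, whose cells also hold Mmrn1 and Vwf, were all higher on average in AIRmax control mice, with a mean deviation from their 16-array means of 0.06 to 1.02, against -1.20 to 0.41 in AIRmin control mice. None of the 6 passed, and their part in the Mmrn1 and Vwf values was not tested.

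Among the adhesion genes Icam1, the intercellular adhesion molecule bound by beta 2 integrins of leukocytes, was the only vascular gene to pass in any of the 5 comparisons. It had 7.96, 7.99, 8.08 and 8.41 in AIRmax pristane mice, against 7.26, 7.38, 7.89 and 7.44 in AIRmax control mice. It had 7.03, 7.34, 7.08 and 7.53 in AIRmin pristane mice, against 7.22, 7.44, 7.58 and 7.61 in AIRmin control mice. All AIRmax pristane arrays lay above all other arrays, and the other 3 groups overlapped. Icam1 was 1.82-fold higher in AIRmax pristane than in AIRmin pristane mice (log2 difference 0.87, SE 0.15, adjusted p = 0.0329). The AIRmax response was 0.62 (SE 0.16, adjusted p = 0.14), the AIRmin response -0.22 (SE 0.14, adjusted p = 0.57) and the difference between them 0.84 (SE 0.22, adjusted p = 0.171). On day 0 the lines differed by 0.03 (SE 0.15, adjusted p = 0.933).

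The call for Icam1 was lost when any of 5 arrays was left out. The adjusted p was 0.0718 without array 111, 0.0819 without 112, 0.122 without 117, 0.0814 without 119 and 0.0609 without 120. The difference stayed between 0.77 and 0.96 there, and the adjusted p ranged from 0.00462 to 0.122 over all alternatives. Of 9 markers of macrophages, which also carry Icam1, 5 passed between the lines with pristane, where 0.853% of all genes passed as higher in AIRmax. These were Cd68, Adgre1, Msr1, Cd14 and Fcgr1, all higher in AIRmax. Without array 119, 1 of them passed (Msr1), where 25 of all 19938 genes passed as higher. In the AIRmax response the list split. Msr1, Cd14 and Cd68 rose, by 1.82, 1.58 and 0.81 (adjusted p = 0.0098, 0.0492 and 0.0308), while Cd163, Mrc1, Mertk and Csf1r gave -0.50, -0.32, -0.04 and -0.01 (adjusted p from 0.409 to 0.986). The 9 markers had a mean deviation of 0.36 to 0.70 in AIRmax pristane mice, against -0.12 to 0.10 in AIRmax control mice. It was -0.71 to -0.23 in AIRmin pristane mice, against -0.08 to 0.07 in AIRmin control mice. The part of macrophages in the Icam1 and Lyve1 values was not tested.

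Sele, the E-selectin that activated endothelium displays to rolling leukocytes, had 7.98, 7.11, 7.79 and 8.63 in AIRmax pristane mice, against 6.81, 6.99, 7.34 and 7.38 in AIRmax control mice. It had 6.39, 6.81, 6.23 and 7.26 in AIRmin pristane mice, against 6.45, 6.38, 6.96 and 7.28 in AIRmin control mice. Of the AIRmax pristane arrays 109, 111 and 112 lay above every other array, while array 110 lay within the control range. The difference was 0.75 (SE 0.29, adjusted p = 0.293) in the AIRmax response and -0.09 (SE 0.26, adjusted p = 0.923) in the AIRmin response, which was 0.06 without array 119. It was 1.20 (SE 0.32, adjusted p = 0.0957) for AIRmax minus AIRmin with pristane, a 2.3-fold ratio. Without array 110 the last was 1.46 and passed (adjusted p = 0.0442), within a range of 0.025 to 0.26 over all alternatives.

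Vcam1, the vascular adhesion molecule that binds alpha 4 integrins and is also found on fibroblasts and on stromal cells and macrophages of bone marrow, had the widest spread of the list. It had 9.11, 7.74, 7.63 and 9.09 in AIRmax pristane mice, against 9.38, 9.13, 8.80 and 9.2 in AIRmax control mice. It had 6.90, 8.76, 6.44 and 8.53 in AIRmin pristane mice, against 7.71, 8.43, 7.55 and 8.47 in AIRmin control mice. Each pristane group split into a high and a low pair, and on day 0 all AIRmax arrays lay above all AIRmin arrays (1.09, SE 0.22, adjusted p = 0.127). The responses were -0.74 (SE 0.36, adjusted p = 0.383) in AIRmax and -0.38 (SE 0.50, adjusted p = 0.804) in AIRmin mice. Without array 119 the AIRmin value was 0.02.

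The high and low Vcam1 arrays were also those with high and low markers of granulocyte precursors of bone marrow (Elane, Mpo, Prtn3, Ctsg, Ms4a3 and Camp). Their mean deviation was 2.28 and 2.20 on the high arrays 109 and 112, and -0.38 and -0.52 on the low arrays 110 and 111. In AIRmin pristane mice it was 1.5 and 0.37 on the high arrays 118 and 120, and -1.23 and -2.01 on the low arrays 117 and 119. On day 0 it was 0.16 to 2.27 in AIRmax control mice, against -2.80 to -0.06 in AIRmin control mice. Elane was at least 6.63 and Mpo at least 7.09 on every array, so neither was near background. The mean signal of all 6 markers was lowest, at 6.35, on AIRmin control array 115. The part of these markers in the Vcam1 value was not tested.

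Ackr1, the chemokine-binding receptor of venules and erythroid cells, had group means of 7.19 in AIRmax pristane and 6.92 in AIRmax control mice, and of 6.80 in AIRmin pristane and 7.06 in AIRmin control mice. The difference was 0.27 (adjusted p = 0.327) in AIRmax and -0.26 (adjusted p = 0.629) in AIRmin mice, there -0.16 without array 119. Madcam1, the addressin of mucosal venules, was dim. It had 4.15, 4.95, 4.23 and 5.07 in AIRmax pristane mice, against 5.20, 5.04, 5.34 and 5.56 in AIRmax control mice (-0.69, SE 0.23, adjusted p = 0.23). It had 5.06, 4.75, 5.06 and 5.15 in AIRmin pristane mice, against 5.40, 5.02, 5.58 and 4.62 in AIRmin control mice. The low AIRmax values came from arrays 109 and 111, both within the 3.45 to 4.32 that Xist gave in males.

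**Figure D3:**
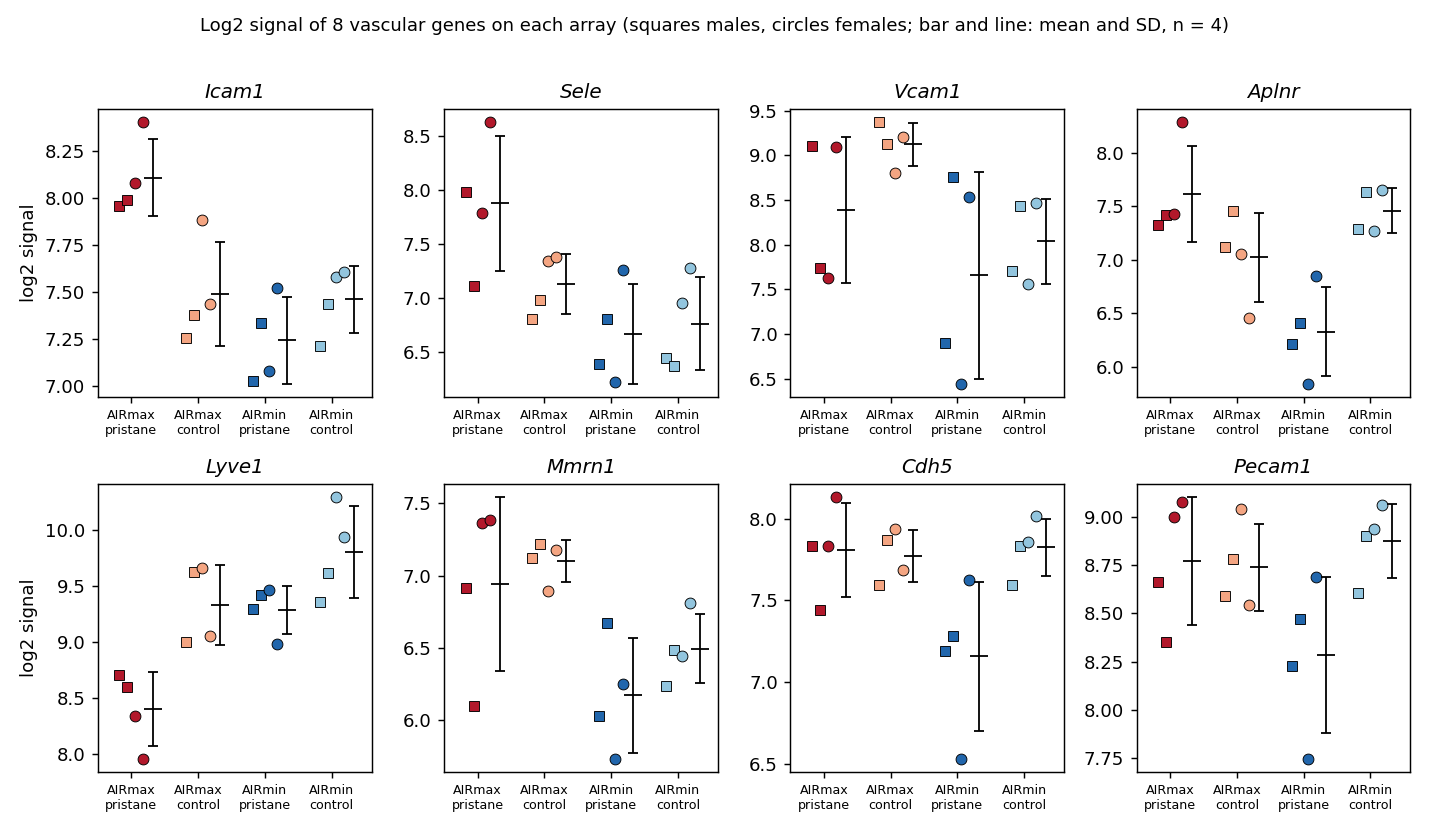
Log2 signal of 8 vascular genes on each array, by group, with squares for males, circles for females, and the mean and SD (n = 4) beside each group. Icam1 in AIRmax pristane mice lies above, and Lyve1 below, all other arrays, while Vcam1 falls into a high and a low pair in each pristane group.

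Promoter sequence was at hand for 20 of the 36 genes, as 26 windows of RefSeq on GRCm38.p6, and the 250 bases before each start were searched on both strands. The windows of Icam1, the gene that passed, of Sele, the inducible selectin with the widest line difference among the adhesion genes, and of Madcam1, the one gene with an NF-kappaB match, are printed 5' to 3', with motif matches in capitals. All 3 lie on the plus strand, at chr9:21015690-21015939, chr1:164047984-164048233 and chr10:79664309-79664558 in that order.
Icam1: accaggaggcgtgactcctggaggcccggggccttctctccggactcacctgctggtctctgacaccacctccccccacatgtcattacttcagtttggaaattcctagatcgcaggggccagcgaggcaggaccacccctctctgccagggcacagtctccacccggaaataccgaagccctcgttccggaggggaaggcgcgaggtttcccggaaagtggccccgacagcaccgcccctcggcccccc
Sele: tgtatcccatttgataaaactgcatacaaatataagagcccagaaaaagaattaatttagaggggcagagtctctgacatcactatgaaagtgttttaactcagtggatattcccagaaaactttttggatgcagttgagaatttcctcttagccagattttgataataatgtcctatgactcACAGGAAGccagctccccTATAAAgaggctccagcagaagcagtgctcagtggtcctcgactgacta
Madcam1: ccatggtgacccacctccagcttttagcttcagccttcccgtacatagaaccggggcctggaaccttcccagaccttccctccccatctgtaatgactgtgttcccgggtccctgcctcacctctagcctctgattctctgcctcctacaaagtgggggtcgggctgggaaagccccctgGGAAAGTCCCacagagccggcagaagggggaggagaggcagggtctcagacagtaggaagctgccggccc

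The NF-kappaB motif searched for was GGGA, any 2 bases, then TTCC. It was found at position -70 from the start of Madcam1, on the minus strand, where it also fitted the stricter form of GGGA, any base, then TTTCC. It was in none of the other 19 genes' windows and in 1.21% of the 32851 promoters searched (0.356% for the stricter form). The ETS motif ACAGGAAG was found in 5 of the 26 windows, from 4 genes (Ackr1, Egfl7, Emcn and Sele), and in 2.9% of all promoters. The ETS motif CCGGAAGT was in none, against 2.88%. In Sele ACAGGAAG stood at position -67, followed by the TATA motif TATAAA at -49. TATAAA was also in the windows of Erg, Flt1 and Prox1, so in 4 of the 26, and in 12.4% of all promoters. The SOX motif AACAATG (Erg and Mmrn1) was in 2 of the 26 windows and in 3.29% of all promoters. The SOX motif ACAAAGG (Ackr1, Apln, Egfl7 and Prox1) was in 4 of the 26 and in 5.08% of all promoters. The window of Icam1 held none of these motifs as written. Only exact matches were searched, so near matches, such as tggaaattcc in Icam1 and gagaatttcc in Sele, were not counted. A match is a description of the letters and no evidence of a bound factor, and the lack of a match is no evidence against one.

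Of the angiogenic ligands, Vegfa, the main growth factor of blood endothelium, was nearly flat. It had 7.36, 7.34, 7.37 and 7.38 in AIRmax pristane mice, against 7.32, 7.23, 7.35 and 7.65 in AIRmax control mice. It had 7.19, 7.33, 7.25 and 7.57 in AIRmin pristane mice, against 7.09, 7.40, 7.63 and 7.68 in AIRmin control mice. All groups overlapped, and the responses were -0.02 (SE 0.10, adjusted p = 0.942) and -0.12 (SE 0.14, adjusted p = 0.792). Angpt2, the angiopoietin that destabilizes vessels, had 5.75, 5.46, 5.55 and 6.20 in AIRmax pristane mice, against 5.90, 6.05, 6.54 and 6.25 in AIRmax control mice. It had 5.71, 6.31, 5.24 and 5.75 in AIRmin pristane mice, against 5.87, 6.12, 6.58 and 6.25 in AIRmin control mice. The difference was -0.45 in both lines (adjusted p = 0.333 in AIRmax and 0.442 in AIRmin), with 1 high array in each pristane group, and the AIRmin value was -0.28 without array 119.

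Angpt1, the stabilizing ligand of Tek, gave -0.71 (SE 0.31, adjusted p = 0.346) in AIRmax and -0.67 (SE 0.20, adjusted p = 0.215) in AIRmin mice. Its lowest values, 5.64 and 5.88, were those of AIRmax pristane arrays 111 and 110 and 5.66 that of AIRmin pristane array 119, all 3 also low in Vcam1. Apln, the peptide ligand of Aplnr, gave 0.24 (adjusted p = 0.462) in AIRmax and -0.21 (adjusted p = 0.48) in AIRmin mice.

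Aplnr, the apelin receptor of sprouting and venous endothelium, had the largest differences of the list in the AIRmin response and between the lines with pristane. It had 7.32, 7.42, 7.43 and 8.29 in AIRmax pristane mice, against 7.12, 7.46, 7.06 and 6.46 in AIRmax control mice. It had 6.22, 6.41, 5.84 and 6.85 in AIRmin pristane mice, against 7.29, 7.63, 7.27 and 7.65 in AIRmin control mice. The AIRmin pristane arrays lay below all AIRmin control and all AIRmax pristane arrays, and array 112 stood above the rest of AIRmax pristane. The AIRmax response was 0.59 (SE 0.26, adjusted p = 0.346) and the AIRmin response -1.13 (SE 0.20, adjusted p = 0.0678), a 2.19-fold lower mean with pristane. AIRmax minus AIRmin was 1.29 with pristane (SE 0.26, adjusted p = 0.0515) and -0.44 on day 0 (SE 0.20, adjusted p = 0.301). The difference between the responses was 1.72 (SE 0.35, adjusted p = 0.0623). It passed without array 109 (1.82, adjusted p = 0.0384) and without array 120 (1.90, adjusted p = 0.0467), and was 1.5 without array 112 (adjusted p = 0.114) and 1.56 without 119 (adjusted p = 0.126). Over all alternatives the adjusted p of this difference ranged from 0.0384 to 0.155.

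To see which genes departed from the common course of blood endothelium, each signal was set against the mean of 6 markers on the same array (Pecam1, Cdh5, Esam, Icam2, Tie1 and Egfl7). Only shifts between groups can be read from this difference, and no test was made. Icam1 then lay at 0.42 to 0.75 in AIRmax pristane mice, against -0.16 to 0.18 in AIRmax control mice. It lay at -0.09 to 0.32 in AIRmin pristane mice, against -0.31 to -0.13 in AIRmin control mice. Relative to the 6 markers, Icam1 thus lay higher with pristane in both lines, without overlap. In AIRmax mice the mean signal of Icam1 itself was also higher (0.62). In AIRmin mice it was lower (-0.22), and the 6 markers differed by more, from -0.35 for Icam2 to -0.67 for Cdh5. The AIRmin shift thus shows a smaller decrease than that of the markers, and no rise of Icam1 itself. Aplnr lay at -0.23 to 0.45 in AIRmax pristane mice, against -1.0 to -0.08 in AIRmax control mice, and at -0.96 to -0.68 in AIRmin pristane mice, against -0.44 to -0.11 in AIRmin control mice. Lyve1 lay at 0.12 to 1.36 in AIRmax pristane mice, against 1.58 to 2.09 in AIRmax control mice, and overlapped in AIRmin mice (1.45 to 2.70 with pristane, against 1.86 to 2.59). Tek lay at -0.23 to -0.01 in AIRmax pristane mice, against 0.20 to 0.41 in AIRmax control mice. Ptprb lay at -0.17 to -0.03 in AIRmax pristane mice, against 0.07 to 0.31 in AIRmax control mice. Of the 30 other genes, 6 lay lower with pristane without overlap on this scale in AIRmax mice (Lyve1, Tek, Ptprb, Kdr, Robo4 and Angpt2) and 2 higher (Icam1 and Ackr1). In AIRmin mice 1 lay lower (Aplnr) and 4 higher (Icam1, Flt1, Nos3 and Vegfa). The signals of these 4 genes themselves all had lower means with pristane, from -0.12 for Vegfa to -0.22 for Icam1. The share of all genes without overlap on this scale was not computed, so these counts have no background and only name the genes. Kdr lay at -0.40 to 0.11 in AIRmax pristane mice, against 0.27 to 0.34 in AIRmax control mice. Vegfa lay at -0.04 to 0.49 in AIRmin pristane mice, against -0.40 to -0.08 in AIRmin control mice, where its own signal overlapped.

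Wider sets of vascular genes were also mostly negative in the AIRmin response. Of 26 other genes of blood endothelium, 16 had negative differences in the AIRmax response (median -0.07) and 22 in the AIRmin response (median -0.29), 12 of these 22 with an unadjusted p under 0.05, where 7.27% of all genes were lower at that p. Without array 119 there were 21 negative (median -0.22), 10 with such a p, against 6.17% of all genes. None passed in either response. Of 25 other VEGF, notch and guidance genes, 15 were positive in the AIRmax response (median 0.07) and 19 negative in the AIRmin response (median -0.19, and -0.16 without array 119, also with 19 negative). With pristane Angptl4, an inhibitor of lipoprotein lipase also tied to vessel growth, was 1.25 higher in AIRmax than in AIRmin mice (adjusted p = 0.0476). Thbd, the anticoagulant thrombomodulin, was lower (-0.61, adjusted p = 0.0473). Without array 119 neither passed (1.20 and -0.58, adjusted p = 0.111 and 0.103).

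Of the 9 other lymphatic genes measured, Pdpn and Stab1 passed. Pdpn, podoplanin, is a surface protein that lymphatic endothelium shares with fibroblasts and inflammatory macrophages. It averaged 9.43 ± 0.49 in AIRmax pristane and 7.53 ± 0.27 in AIRmax control mice, and 7.01 ± 0.24 in AIRmin pristane and 7.40 ± 0.31 in AIRmin control mice (SD, n = 4 each). It rose by 1.90 in AIRmax mice (adjusted p = 0.0241) and differed by 2.41 between AIRmax and AIRmin mice with pristane (adjusted p = 0.00448, and 0.0306 without array 119). Stab1, a scavenger receptor of sinusoidal endothelium and macrophages, was 0.97 higher in AIRmax than in AIRmin mice with pristane (adjusted p = 0.0321), and did not pass without array 119 (0.89, adjusted p = 0.0758). Of 15 leukocyte counter-receptors and transmigration genes 13 had higher means in AIRmax than in AIRmin mice with pristane (median 0.54, and 0.51 with 11 higher without array 119), and none passed. The smallest p there was for Itgb2, the integrin chain whose dimers bind Icam1 (1.61, adjusted p = 0.146).

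Markers of several other cell types differed between the same groups, given here as the range over arrays of their mean deviation from the 16-array means. In AIRmax mice blood endothelium lay at -0.25 to 0.31 with pristane, against -0.09 to 0.29 in control mice. The 12 markers of pericytes and smooth muscle lay at -0.54 to -0.22 with pristane, against -0.13 to 0.36. The 12 of skeletal muscle lay at -1.67 to -0.09, against -0.32 to 0.33, with all 12 differences negative (median -0.95) and 10 at an unadjusted p under 0.05. Of all genes 6.9% were lower at that p. The 8 of adipocytes lay at -1.16 to -0.05, against -0.05 to 0.71, again all negative (median -1.03), 7 at such a p. In AIRmax mice the pristane and control arrays thus overlapped for blood endothelium and also for skeletal muscle. The list means of mural cells, muscle and fat were lower with pristane, while that of blood endothelium was 0.05 with pristane and 0.08 in control mice. Of the 12 mural markers 11 were negative, 7 at such a p, and 1 was positive, also at such a p. Of all genes 6.9% were lower and 7.54% higher at that p.

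In AIRmin mice blood endothelium lay at -0.65 to 0.08 with pristane, against -0.04 to 0.28 in control mice, and at -0.38 to 0.08 without array 119. Its pristane and control arrays thus overlapped in this line too. The 10 fibroblast markers lay at -0.99 to -0.25 with pristane, against 0.13 to 0.44 in control mice, and at -0.63 to -0.25 without array 119. Pericyte and smooth muscle markers lay at -0.52 to 0.10, against 0.14 to 0.43, and at -0.01 to 0.10 without that array. Adipocyte markers lay at -0.70 to 0.24, against 0.24 to 0.93, all 8 negative (median -0.69, and -0.59 without array 119). Of these, 5 had an unadjusted p under 0.05 with and without that array, where 7.27% and 6.17% of all genes were lower. The 9 macrophage markers, given beside Icam1, were all negative too. Not every cell type had lower markers in AIRmin pristane mice. The 7 keratinocyte markers lay at 0.14 to 0.64, against -0.10 to 0.19, all positive (median 0.28, and 0.27 without array 119). At such a p there were 6, and 1 without that array, where 5.12% and 5.25% of all genes were higher. Skeletal muscle lay at 0.25 to 0.60, against -0.58 to 0.79, with 9 of 12 positive and none at such a p. The 5 erythroid markers overlapped in both lines.

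Between the lines with pristane all 12 muscle markers were lower in AIRmax than in AIRmin mice (median -1.24, and -1.18 without array 119). Of these, 11 lay lower without overlap, against 5.81% of all genes. Of the 12, 1 passed (Mb, adjusted p = 0.0317, and 0.0809 without array 119), where 1.36% of all genes passed. All 7 keratinocyte markers also had the lower mean in AIRmax (median -0.79, and -0.75 without array 119). So did all 8 adipocyte markers (median -0.50, and -0.70 without that array). None of these keratinocyte or adipocyte markers passed, with or without array 119. In the other direction, 9 of 10 fibroblast markers had the higher mean in AIRmax (median 0.78, and 0.56 with 8 higher without array 119). Of the 10, 2 passed as higher, where 0.853% of all genes did. Without array 119, 1 passed as higher, where 25 of all 19938 genes did. The part of cell composition in the vascular differences was not tested.

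**Figure D4:**
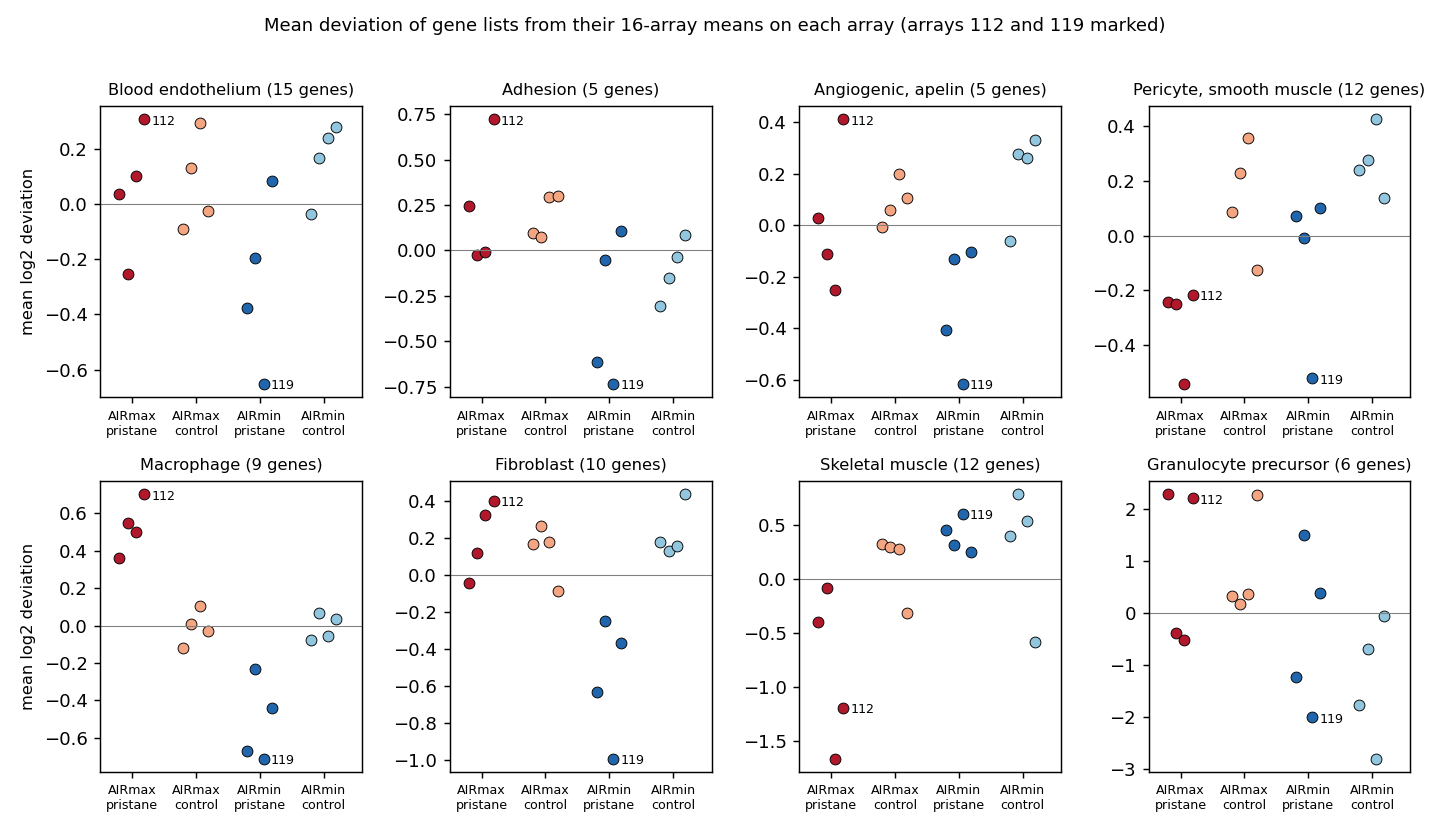
Mean log2 deviation of 8 gene lists from their 16-array means on each array, by group, with arrays 112 and 119 marked. Array 119 is the lowest of all arrays for blood endothelium, adhesion, angiogenic and apelin, macrophage and fibroblast genes, and the macrophage list separates the AIRmax pristane arrays, at 0.36 to 0.70, from all others.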

How the data were processed

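Footpad total RNA was hybridized to 16 arrays of the type Affymetrix Mouse Gene 1.0 ST. The authors deposited log2 signals per probe set, already normalized. Titles of the samples give RMA at gene level as the method, while the submitters' processing notes name MAS5, and versions are not given in the sources used here. The values were used as deposited. The 4 arrays per group limit the precision.

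Of 35556 probe sets, 23410 were annotated by the platform table, 21789 with 1 gene and 1621 with several. Only those naming 1 gene were kept, and 21698 of them matched RefSeq by Entrez number. For the 999 genes with several probe sets the one with the highest mean signal was kept, which gave 19938 genes. Each of the 36 vascular genes had 1 probe set.

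Comparisons of 2 groups were fitted with limma 3.58.1 (lmFit, eBayes with a constant prior, R 4.3.3) on their 8 arrays, and the interaction on all 16, with Benjamini-Hochberg adjustment over all genes and a threshold of 0.05. SAM, the test of the study's methods, was rewritten (70 relabellings, false discovery rate 0.05). Its fudge constant was taken at the percentile 50, 5, 0 and 5 of the gene spreads in the AIRmax response, the AIRmin response, the lines with pristane and the lines on day 0. Both were tested on simulated data. Groups do not overlap where all arrays of one lie above all of the other. For lists, the deviation of each gene from its mean over the 16 arrays was averaged per array.

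The genes, roles and 13 other lists were chosen with earlier results of these data known, so no list was tested. Values on every array are given for genes that passed, for the 4 smallest p values of each comparison and for defining genes of each role. Of other lists, genes that passed or had the smallest p are named, except that the 2 fibroblast markers that passed are only counted. Some genes of those lists are not reported here, and counts are over the genes analysed. Alternatives were 1 fit of all 16 arrays, labelled sex as covariate, standardized arrays, quantile normalization, the mean of probe sets, genes above the median signal (9969), a trended robust prior, each array left out, and SAM. Promoters, tables and figures were handled with matplotlib 3.10.9, pandas 2.3.3 and numpy 2.4.6 under Python 3.11.15.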

Additional observations from a re-analysis of the deposited data

Results flagged for a closer look

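In 144 groups of 4 arrays (36 vascular genes in 4 groups), 3 held an array far from the other 3, where chance gives about 1 in 20 groups. Aplnr was 8.29 on AIRmax pristane array 112, against 7.32 to 7.43 on the other AIRmax pristane arrays. Sox17 was 5.49 on AIRmax control array 107, against 4.97 to 5.01 on the others of its group. Icam2 was 5.85 on AIRmax control array 106, against 6.26 to 6.31 on the others.

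Pdpn, podoplanin, differed in its response between the lines. The AIRmax response minus the AIRmin response was 2.29 (limma interaction, adjusted p = 0.00585), with a response of 1.90 in AIRmax and of -0.39 in AIRmin mice (adjusted p = 0.0241 and 0.39). All 4 AIRmax pristane arrays, at 8.98 to 10.0, lay above all AIRmax control arrays, at 7.20 to 7.85.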

How the results depend on the processing

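No paired analysis was possible because the array numbers in the labels are not shared between groups. The medians of the vascular genes moved by less than the spread between arrays in every alternative. That of the AIRmax response, -0.00, took either sign, from -0.11 without array 112 to 0.09 without array 110, while those of the other 4 comparisons kept theirs. No gene that passed or was among the 4 smallest p values of a comparison changed direction there, while among the other genes Vcam1 and Sele turned in the AIRmin response without array 119, as did 4 genes between the lines with pristane and 4 in the interaction. In the AIRmax response 0 genes passed, against 1 with all 16 arrays in 1 fit (Lyve1) and 3 by SAM. In the AIRmin response 0 passed, against 1 by SAM (Aplnr). Between the lines with pristane 1 passed (Icam1), against 5 with all 16 arrays in 1 fit (Ecscr, Lyve1, Icam1, Sele and Aplnr) and 2 each with sex as a covariate, genes above the median signal and the trended robust prior (Lyve1 and Icam1) and with standardized arrays and quantile normalization (Icam1 and Aplnr). With 1 array left out the count was 0 to 3, with 3 without array 110 (Lyve1, Icam1 and Sele) and 0 without 111, 112, 117, 119 or 120. On day 0 no gene passed, against 2 by SAM. In the interaction 0 passed, against 1 (Aplnr) with standardized arrays, quantile normalization or genes above the median signal, and 0 to 1 with 1 array left out. The cause of these changes was not tested. No vascular gene has another probe set, so that alternative gave no value. With 4 arrays a group and SEs of 0.09 to 0.67 for the vascular genes, small differences were not detectable.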
